A study of Mus musculus with 20 samples.

Results

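Serpins are a large family of proteins most of which inhibit serine proteases by a suicide mechanism, in which the protease cleaves a reactive loop and stays covalently trapped. Kallikreins are secreted serine proteases, and the genes described here belong to the kallikrein-related cluster. In the mammary gland, an inner luminal layer that includes hormone-sensing and milk-forming cells is surrounded by a basal, contractile layer, and members of both families are secreted or intracellular products of these epithelial cells. The genes were chosen by symbol, as every serpin of clades A to I and every numbered kallikrein whose probe set on a mouse Affymetrix gene array was annotated with that symbol alone. This gave 59 genes, 47 serpins and 12 kallikreins, among 19937 genes with such a probe set. A further 17 protein-coding RefSeq genes with matching symbols had no such probe set and were not analysed here.

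Expression was measured in mammary cells sorted from K8-creERT2/PIK3CA H1047R mutants and from K8-creERT2 controls, both on a mixed FVB/CD-1 background and both given tamoxifen, 4 weeks before sorting. Cre is driven by the luminal keratin 8 promoter, and its activation switches on PIK3CA H1047R, a cancer-associated form of the PI3-kinase catalytic subunit, together with GFP. The mutants gave 3 arrays of GFP-positive basal cells, 3 of GFP-negative basal cells, 3 of GFP-positive Sca1-negative luminal cells and 2 of GFP-positive Sca1-positive luminal cells. The controls, whose cells were gated as GFP-negative, gave 3 arrays each of basal, Sca1-negative luminal and Sca1-positive luminal cells. Basal cells were gated as CD45-negative, CD24-low and Sca1-negative, and luminal cells as CD45-negative and CD24-high. Each array used amplified RNA of 2000 cells from glands pooled from 2 to 3 estrus-synchronized mice, in 3 independent sortings. The labels give no ages. GFP-positive groups differed from control groups in genotype and in the GFP gate together, and these cannot be told apart.

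Levels are log2 probe-set values, and since probe sets differ in sensitivity, each gene is compared only with itself across groups. Array medians lay between 3.66 and 3.8. No detection calls were used, so where a group reads near these medians its level may be set by the low end of the scale, and its log2 difference from a higher group may understate the change. No linear fold is given for such a difference. Replicate 2 of GFP-positive basal cells and replicate 2 of control Sca1-positive luminal cells had a narrower spread over probe sets (SD 1.71 and 1.73) than the 18 other arrays (1.78 to 1.88). The sorted lineages carried their markers: 7 basal markers averaged 9.36 to 10.03 on the 9 basal arrays and 4.55 to 5.55 on the 11 luminal arrays, while 5 luminal markers averaged 8.73 to 9.91 on the basal and 10.89 to 11.09 on the luminal arrays. The list of 6 immune markers averaged 3.65 to 4.09 on every array, but Cd68 of that list had group means of 5.14 to 6.92. A gene was called changed where its adjusted p was under 0.05 in a limma model of all 7 groups, with Benjamini-Hochberg adjustment over all 19937 genes.

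Most serpin and kallikrein probe sets stayed near the array medians in all 7 groups. Only 9 of the 59 genes (15.3%) had a group mean above 5, against 36.2% of all genes. A total of 11 genes, 9 serpins and 2 kallikreins, were called in at least 1 of 8 comparisons between groups. This share of 18.6% was close to the 17.6% of all genes called in at least 1 of them. The 48 others had group means between 2.57 and 4.7. The 5 genes that were called in a mutant comparison were Klk10, Klk11, Serpinb11, Serpinf1 and Serping1, and the heat map of group means shows how few groups each one was high in.

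**Figure D1:**
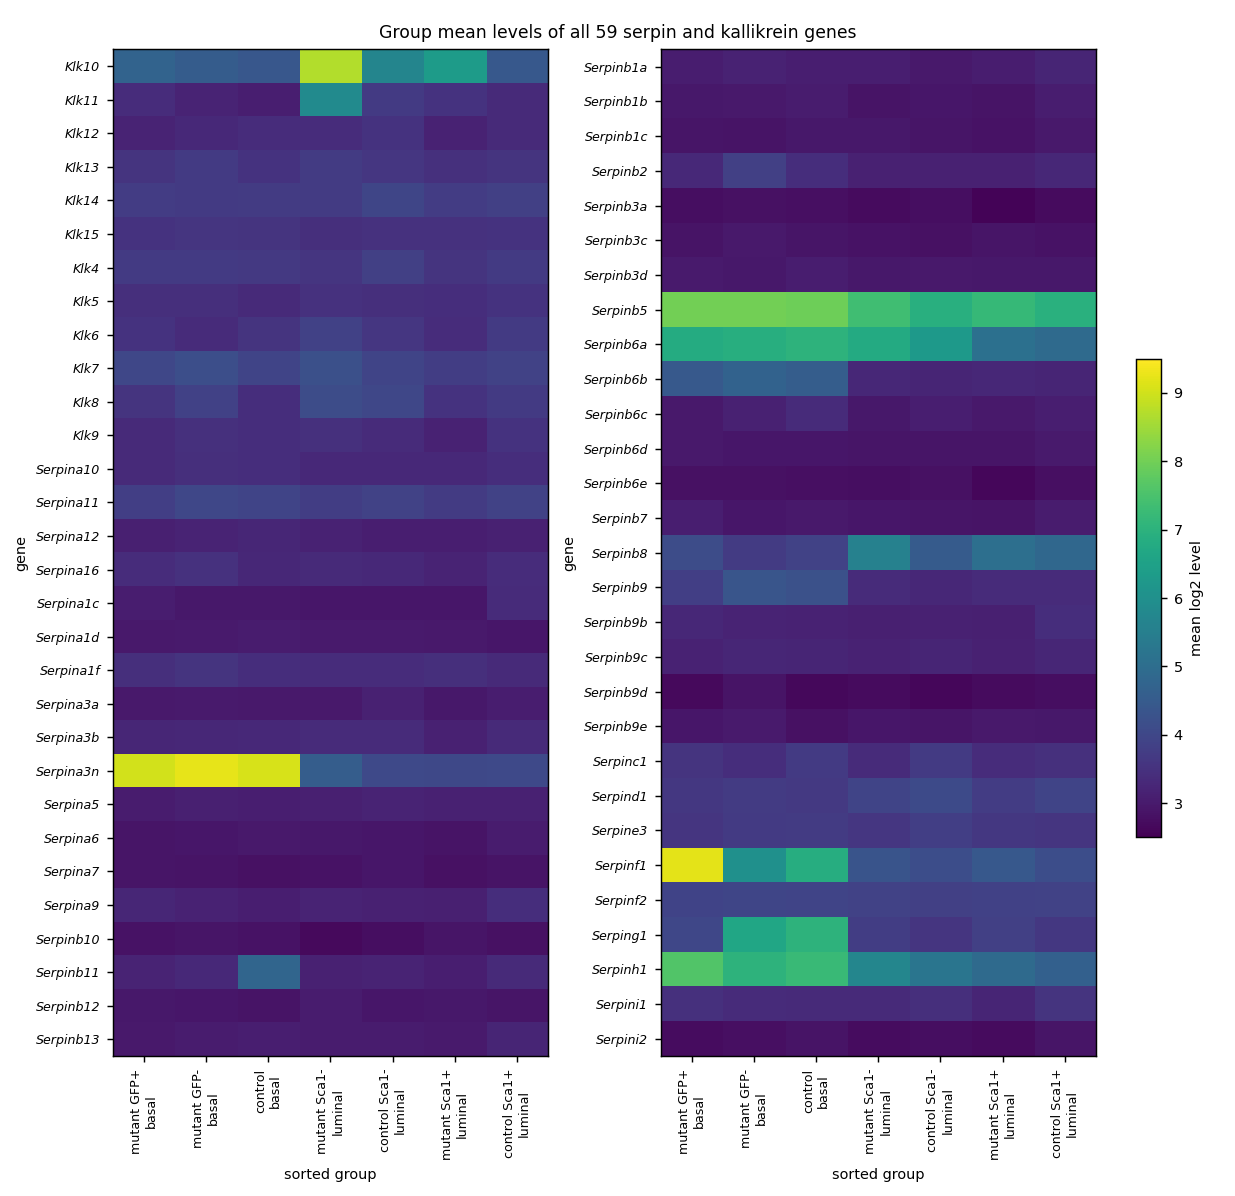
Mean log2 level of each of the 59 serpin and kallikrein genes (rows) in each of the 7 sorted groups (columns), with the colour scale from 2.5 to 9.5. The rows that stand out are the 9 genes with a group mean above 5, among them Klk10 and Klk11 in mutant Sca1-negative luminal cells and Serpinf1 in GFP-positive basal cells.

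Because Klk10 and Klk11 are neighbours on chromosome 7 that were called in the same comparison, and Serpinb11 was the member called in mutants from its cluster on chromosome 1, the regions around their annotated starts are shown (250 bases before and 50 after the start, RefSeq, GRCm38.p6). All are on the plus strand, and Klk11 has 2 annotated starts. Capitals mark matches to any of the motifs searched.
Klk10, chr7:43780804-43781103: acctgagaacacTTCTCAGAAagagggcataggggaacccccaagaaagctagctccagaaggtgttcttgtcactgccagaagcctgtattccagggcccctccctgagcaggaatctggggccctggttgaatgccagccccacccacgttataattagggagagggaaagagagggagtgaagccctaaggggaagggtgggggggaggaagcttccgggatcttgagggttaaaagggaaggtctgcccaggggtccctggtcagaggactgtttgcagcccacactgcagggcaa
Klk11, chr7:43774367-43774666: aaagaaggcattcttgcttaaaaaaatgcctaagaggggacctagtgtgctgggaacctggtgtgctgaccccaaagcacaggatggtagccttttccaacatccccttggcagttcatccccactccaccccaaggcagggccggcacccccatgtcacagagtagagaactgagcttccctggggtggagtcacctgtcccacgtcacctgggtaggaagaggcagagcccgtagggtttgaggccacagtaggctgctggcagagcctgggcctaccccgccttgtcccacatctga
Klk11, chr7:43776079-43776378: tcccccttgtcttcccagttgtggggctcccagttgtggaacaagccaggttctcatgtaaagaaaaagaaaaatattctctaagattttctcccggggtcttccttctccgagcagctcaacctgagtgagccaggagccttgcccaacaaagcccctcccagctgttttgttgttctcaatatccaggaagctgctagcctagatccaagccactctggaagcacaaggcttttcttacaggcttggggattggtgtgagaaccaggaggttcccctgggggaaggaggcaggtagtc
Serpinb11, chr1:107362064-107362363: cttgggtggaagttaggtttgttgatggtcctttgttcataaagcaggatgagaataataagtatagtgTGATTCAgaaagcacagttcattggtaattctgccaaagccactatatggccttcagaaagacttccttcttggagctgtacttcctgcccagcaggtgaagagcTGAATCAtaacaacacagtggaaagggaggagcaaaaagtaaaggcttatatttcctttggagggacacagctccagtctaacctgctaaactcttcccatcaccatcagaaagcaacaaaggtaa

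Both strands were searched for 4 motifs, the TATA box with the letters TATAAA, a STAT-type motif with the letters TTCNNNGAA, an AP-1-type motif with the letters TGANTCA and a forkhead-type motif with the letters TGTTTAC. The Klk10 sequence held 1 STAT-type match, at base 13. Neither Klk11 sequence held a match to any of the 4 motifs. The Serpinb11 sequence held 2 AP-1-type matches, at bases 70 and 175. The region of Serpinf1, another gene called in mutants, was also searched, is not printed and held no match to any of the 4 motifs. Of 32851 RefSeq promoters of the same length, 13.6% held the TATA box, 8.3% the STAT-type, 7.81% the AP-1-type and 3.65% the forkhead-type motif. Among the 63 promoters of the 53 members in that table, these shares were 25.4%, 12.7%, 15.9% and 0.0%. A match is a description of the letters only.

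Klk10 and Klk11 rose in mutant Sca1-negative luminal cells. Klk10 encodes a secreted kallikrein whose human counterpart was first described as a transcript reduced in breast cancer cell lines. It read 9.05, 7.99 and 9.08 on the 3 arrays of mutant Sca1-negative luminal cells, against 4.52, 6.59 and 5.94 on the 3 control arrays. Every mutant array was above every control array, as was so for 9.12% of all genes, although the controls spread widely. The difference was 3.02 ± 0.50 (SE), or 8.11-fold on the linear scale, with a limma adjusted p of 0.0038.

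Klk11 encodes a secreted trypsin-like kallikrein. Its values were 6.79, 4.54 and 6.18 in mutant Sca1-negative luminal cells, against 3.83, 3.62 and 3.58 in control Sca1-negative luminal cells. The groups did not overlap, with mutant arrays above controls as for 9.12% of all genes. The 17 arrays outside mutant Sca1-negative luminal cells read between 2.94 and 3.83. The difference was 2.16 ± 0.38 (SE), with a limma adjusted p of 0.00618. Replicate 2 was the lowest of the 3 mutant arrays for both kallikreins.

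These were the only called members in that comparison, 2 of 59 (3.39%), while 1.9% of all genes were called in either direction and 1.21% higher. The median difference of the 59 members was 0.02, against -0.03 for all genes. When only the 6 arrays of the groups compared entered the fit, Klk10 and Klk11 kept their differences and lost the call (adjusted p 0.0745 and 0.138), and Serpinh1, a member not called in the fit of all arrays, was called (difference 0.49, adjusted p 0.0398).

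The 12 kallikrein genes lie in 1 row on chromosome 7, in the order Klk14, Klk13, Klk12, Klk11, Klk10, Klk9, Klk8, Klk7, Klk6, Klk5, Klk4 and Klk15. The genes on either side of the called pair differed little between mutant and control Sca1-negative luminal cells, with -0.15 for Klk12 (adjusted p 0.651) and 0.11 for Klk9 (adjusted p 0.823). Over the 10 other kallikreins the differences ran from -0.26 to 0.27, with no adjusted p under 0.303. None of these 10 was called in any of the 8 comparisons, and their group means lay between 3.16 and 4.22.

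**Figure D2:**
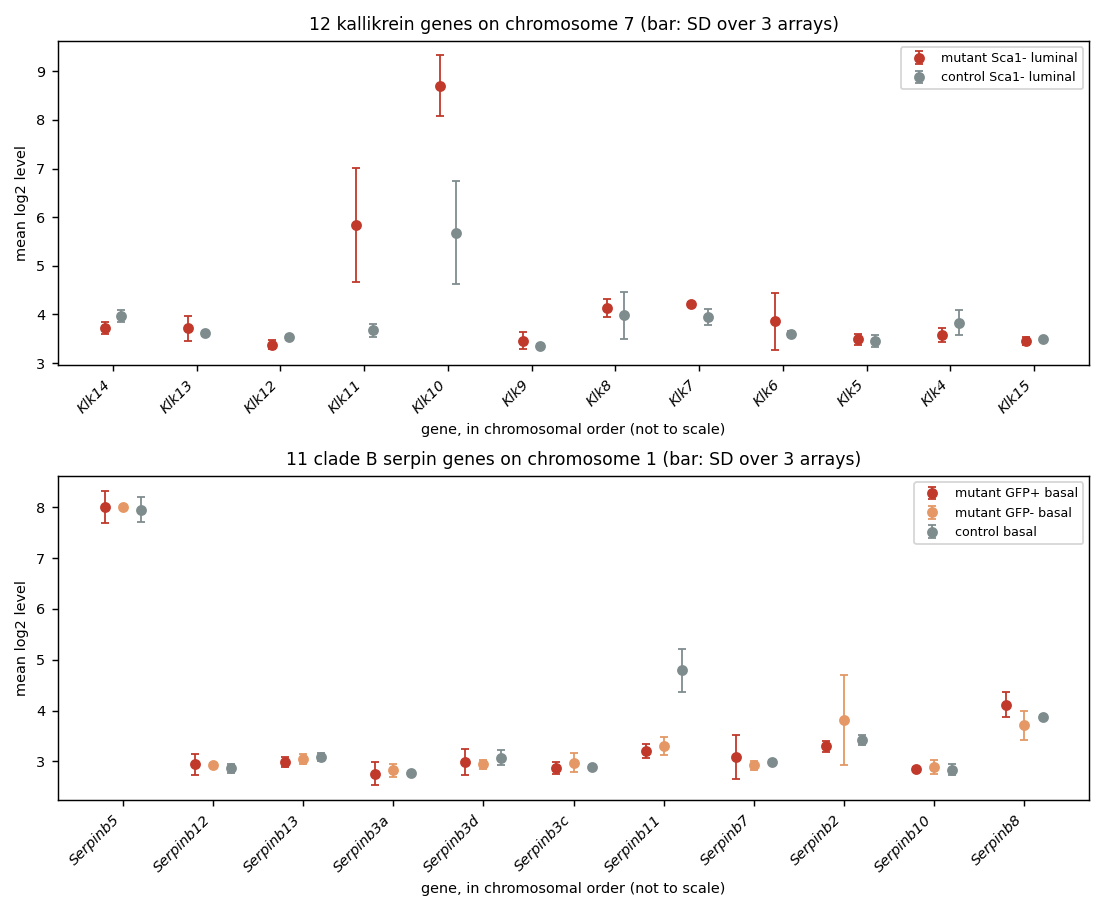
Mean log2 level (points) with its SD over 3 arrays (bars). Top, the 12 kallikrein genes in chromosome 7 order in mutant and control Sca1-negative luminal cells, with Klk11 and Klk10 apart; bottom, 11 clade B serpin genes in chromosome 1 order in GFP-positive, GFP-negative and control basal cells, with Serpinb11 higher in control basal cells.

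In Sca1-positive luminal cells no member was called in the limma fit, where 0.226% of all genes were called. At an unadjusted p under 0.05 there were 3 members (Klk10, Klk9 and Serpina1c), that is 5.08% of members, against 8.96% of all genes, and none was called under any alternative setting. Klk10 read 5.37 and 7.31 on the 2 mutant arrays, against 4.18, 4.71 and 4.37 on the 3 control arrays. Both mutant arrays lay above the controls, as they did for 10.9% of all genes, and the 2 mutant arrays stood far apart. The difference of 1.92 ± 0.56 (SE) had a limma adjusted p of 0.252. Klk11 read 3.53 and 3.54 in mutant Sca1-positive luminal cells and 3.29, 3.65 and 3.10 in control Sca1-positive luminal cells, so the groups overlapped. Of 7 basal markers Krt5 rose in mutant Sca1-positive luminal cells (2.14, adjusted p 0.00223), and that list averaged 5.27 to 5.53 per array in mutant and 4.55 to 4.75 in control cells. The luminal progenitor list, with no member called, averaged 6.16 on both mutant arrays and 5.27 to 5.48 in control cells. Their part in the Sca1-positive differences, that of Klk10 among them, was not tested.

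The size of the mutant difference was compared between the luminal subsets as an interaction, Sca1-positive minus Sca1-negative. No member passed in limma, where 0.14% of all genes did, and 3 members had an unadjusted p under 0.05 (5.08%, against 5.66% of all genes). The interaction was -1.10 for Klk10 (adjusted p 0.99994) and -1.97 for Klk11 (adjusted p 0.332). Without replicate 2 of mutant Sca1-negative luminal cells, Klk11 passed, with -2.62 (adjusted p 0.00258).

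In basal cells both kallikreins read low on every array. Klk10 read 4.87, 4.79 and 4.54 in GFP-positive basal cells, 4.70, 4.06 and 4.85 in GFP-negative basal cells, and 4.79, 4.10 and 4.26 in control basal cells. Klk11 lay between 2.94 and 3.71 on the 9 basal arrays. Neither gene was called between GFP-positive and control basal cells, where the differences were 0.35 for Klk10 (limma adjusted p 0.816) and 0.31 for Klk11 (adjusted p 0.777). Between control basal and control Sca1-negative luminal cells Klk10 differed by -1.30 (adjusted p 0.136), and by -1.88 without replicate 1 of control Sca1-negative luminal cells (adjusted p 0.0202). Klk11 was called there only with the arrays compared alone in the fit (-0.60, adjusted p 0.0367).

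**Figure D3:**
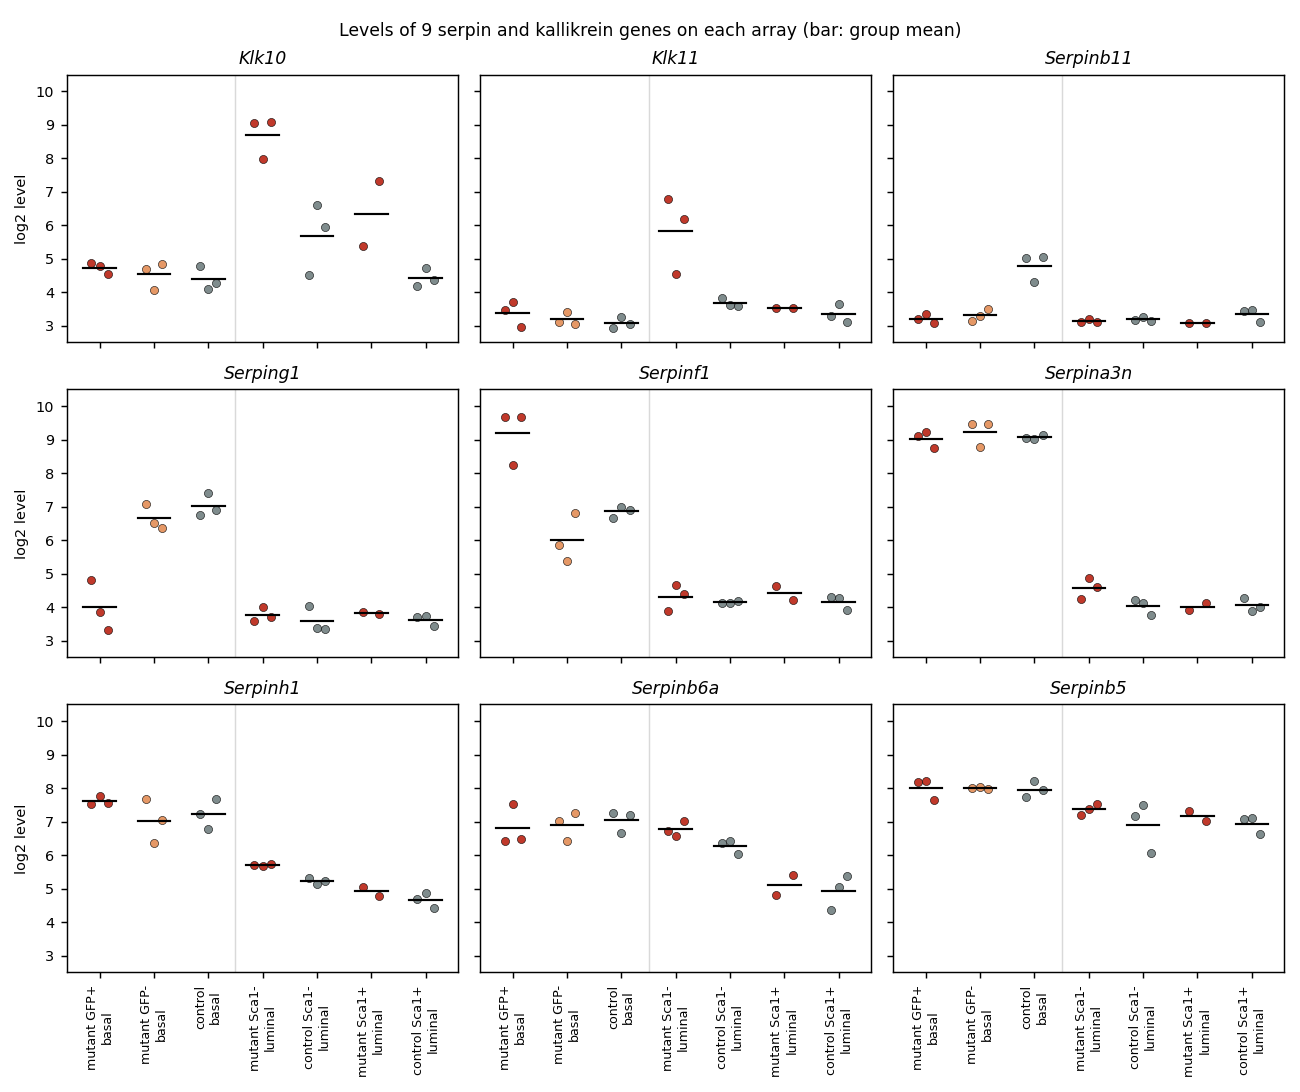
Log2 level of 9 serpin and kallikrein genes on each of the 20 arrays (points) in the 7 sorted groups, with the group mean as a bar and the 3 basal groups left of the 4 luminal ones. Klk10 and Klk11 are highest in mutant Sca1-negative luminal cells, Serpinb11 in control basal cells and Serpinf1 in GFP-positive basal cells, where 2 of the 3 Serping1 points lie within or below the luminal range of 3.35 to 4.03.

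Markers of luminal cell types moved in the same comparison. All 4 measured hormone-sensing markers fell in mutant Sca1-negative luminal cells, where the list averaged 4.65 to 4.97 per array, against 6.78 to 7.07 in control Sca1-negative luminal cells. Of 4 luminal progenitor markers 1 rose (Elf5, 2.23), and that list averaged 8.24 to 8.54 in mutant cells, against 7.34 to 7.73 in control cells. In such bulk samples, fewer cells of a type and less RNA per cell cannot be told apart. Of 6 fibroblast markers Dcn fell (-2.825), and that list averaged 4.25 to 4.44 in mutant and 4.77 to 4.93 in control Sca1-negative luminal cells. The other 5 were not called, and the median difference of the list was -0.09, against -0.03 for all genes. Dcn averaged 10.48 in control Sca1-negative luminal and 7.43 in control basal cells. Which cells gave the Dcn signal was not tested. The part of these marker shifts in the kallikrein differences was not tested.

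In basal cells the changed members were 3 serpins. GFP-positive basal cells had more Serpinf1, less Serping1 and less Serpinb11 than control basal cells. That is 1 member higher and 2 lower of 59 (5.08%), while 4.23% of all genes were called in either direction, 2.32% higher and 1.91% lower, so the members' share was close to that of all genes.

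Serpinf1 encodes PEDF, a secreted non-inhibitory serpin known for restraining blood vessel growth. Its values were 9.67, 8.26 and 9.68 in GFP-positive basal cells, 5.85, 5.39 and 6.82 in GFP-negative basal cells, and 6.67, 6.99 and 6.91 in control basal cells. All 3 GFP-positive arrays were above the 6 others, and the GFP-negative arrays reached down below the controls. Over all genes, 7.23% had every GFP-positive array above every control basal array. GFP-positive exceeded control basal cells by 2.35 ± 0.36 (SE), or 5.08-fold (limma adjusted p 0.00103).

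Against GFP-negative basal cells of the same genotype, Serpinf1 was higher by 3.19 ± 0.36 (SE), or 9.10-fold (limma adjusted p 6.26e-05). The difference of -0.84 between GFP-negative and control basal cells was not called (adjusted p 0.475). Replicate 2, the lowest GFP-positive array, was also 1 of the 2 arrays of narrower spread, and without both of these arrays the difference from control was 2.82 (adjusted p 0.000197).

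Serping1 encodes C1 inhibitor, the plasma serpin that blocks C1r and C1s of the complement system, plasma kallikrein and coagulation factor XII. It read 4.79, 3.87 and 3.32 in GFP-positive basal cells, 7.08, 6.52 and 6.35 in GFP-negative basal cells, and 6.76, 7.41 and 6.90 in control basal cells. The GFP-positive arrays lay below all 6 others, and 2 of the 3 were inside the range of the 11 luminal arrays, 3.35 to 4.03, or below it. Over all genes, 11.4% had every GFP-positive array below every control basal array. Serping1 fell by 3.03 on the log2 scale (SE 0.30) relative to control basal cells (limma adjusted p 1.41e-05).

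Relative to GFP-negative basal cells, Serping1 fell by 2.66 (SE 0.30; limma adjusted p 6.81e-05). The difference between GFP-negative and control basal cells was -0.38 (adjusted p 0.765). Serpinf1 and Serping1 thus made up the calls between GFP-positive and GFP-negative basal cells, 1 higher and 1 lower of 59, where 3.25% of all genes were called in either direction, 2.05% higher and 1.2% lower. With only the arrays of those groups in the fit, both calls were lost (adjusted p 0.0752 for Serpinf1 and 0.0595 for Serping1), as was that of Serpinf1 between GFP-positive and control basal cells (adjusted p 0.0545).

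Serpinb11, an intracellular clade B serpin, was high in control basal cells only. It read 3.20, 3.35 and 3.08 in GFP-positive basal cells, 3.15, 3.28 and 3.49 in GFP-negative basal cells, and 5.01, 4.30 and 5.06 in control basal cells. All 17 arrays outside control basal cells lay between 3.08 and 3.49, below each of the 3 control basal arrays. Serpinb11 fell by 1.58 (SE 0.16) in GFP-positive relative to control basal cells (limma adjusted p 1.86e-05).

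In GFP-negative basal cells Serpinb11 fell by 1.49 (SE 0.16) relative to control basal cells (limma adjusted p 0.00261). It was the only member called in that comparison, 1 of 59, where 0.161% of all genes were called in either direction and 0.0652% lower. Both comparisons use the same 3 control arrays. GFP-positive minus GFP-negative basal cells came to -0.09 (adjusted p 0.899). With only the 6 arrays of GFP-negative and control basal cells in the fit, the call was lost (adjusted p 0.545), and it was not tested among genes above the median mean level, since its mean over all arrays lies under it.

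Serpinb11 belongs to a row of 11 clade B genes on chromosome 1, between Serpinb3c and Serpinb7. Over the 10 others the differences ran from -0.12 to 0.24 between GFP-positive and control basal cells, with no adjusted p under 0.693. Between GFP-negative and control basal cells they ran from -0.16 to 0.39, with no adjusted p under 0.703. Serpinb5 and Serpinb8, at the ends of this row, are described with the lineages.

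**Figure D4:**
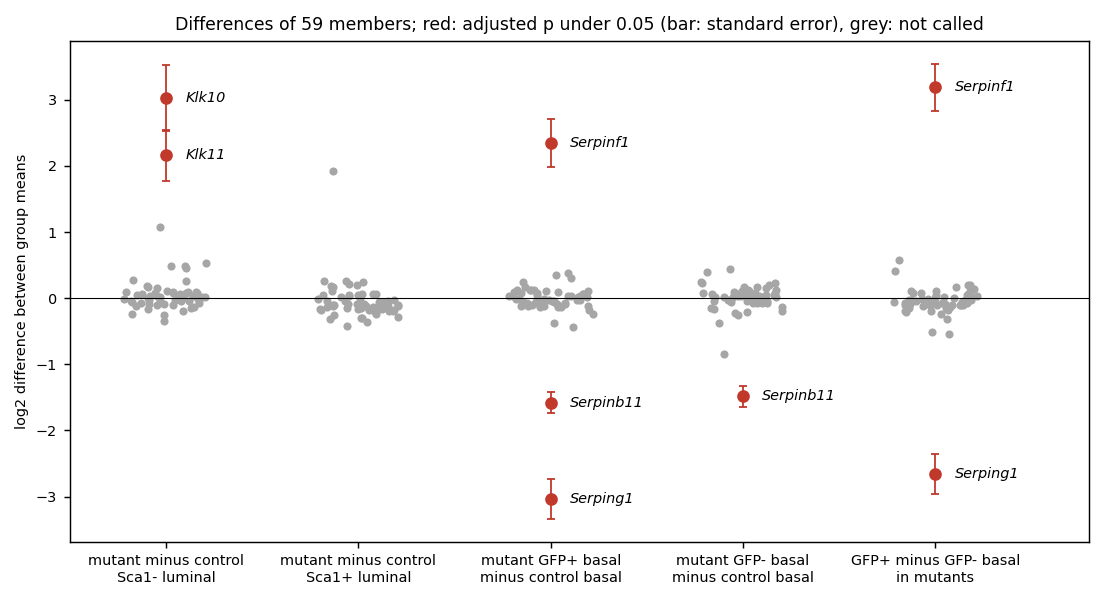
Log2 differences of all 59 genes (points) in 5 comparisons within the mutant study, with called genes in red, named and with their standard error, and genes not called in grey. Called genes lie beyond 1 log2 unit, and the grey point near 2 in Sca1-positive luminal cells is Klk10.

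The GFP-positive basal difference minus the Sca1-negative luminal difference was also fitted. For Serping1 and Serpinb11 it restates the basal falls, since both genes read at or near the array medians in luminal cells (control Sca1-negative means 3.58 and 3.19), where a fall could not be measured. Serpinf1 (2.17 ± 0.51 SE, limma adjusted p 0.0447), Serping1 (-3.22 ± 0.43, adjusted p 0.000663) and Serpinb11 (-1.53 ± 0.23, adjusted p 0.00188) passed, 3 of 59, where 1.55% of all genes did, 0.938% with a positive and 0.617% with a negative value. The Serpinf1 call was lost under 13 of 21 alternative settings. In Sca1-negative luminal cells the mutant differences were 0.17 for Serpinf1, 0.18 for Serping1 and -0.05 for Serpinb11, none of them called. The same test gave -2.67 for Klk10 (adjusted p 0.0857) and -1.85 for Klk11 (adjusted p 0.134). Klk10 passed among genes above the median mean level (adjusted p 0.0431) and without replicate 2 of control Sca1-negative luminal cells (-3.13, adjusted p 0.0439), and Klk11 without replicate 2 of mutant Sca1-negative luminal cells (-2.50, adjusted p 0.000547).

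Lineage markers also moved in GFP-positive basal cells. Of 7 basal markers 2 fell (Oxtr by 1.84 and Myh11 by 0.70), and the list averaged 9.36 to 9.69 in GFP-positive basal cells, against 9.85 to 9.90 in control basal cells. Of 5 luminal markers Krt18 and Krt19 rose, and that list averaged 9.26 to 9.91 in GFP-positive basal cells, against 8.81 to 9.23 in control basal cells. Of 4 luminal progenitor markers Cd14 and Elf5 rose, and the list averaged 4.99 to 6.13 and 4.33 to 4.54 in GFP-positive and control basal cells.

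Of 6 fibroblast markers Dcn (3.15) and Col1a2 (0.88) rose in GFP-positive relative to control basal cells, and the list averaged 4.95 to 5.20 against 4.33 to 4.49. The other 4 were not called, and the median difference of the list was -0.03, the same as over all genes. Dcn averaged 7.43 in control basal cells, below its means of 10.48 and 11.2 in control Sca1-negative and Sca1-positive luminal cells. Which cells gave the Dcn signal was not tested here either. Of 4 endothelial markers Cdh5 fell, and of 3 pericyte markers Cspg4 rose. The part of these shifts in the serpin differences was not tested. In GFP-negative basal cells none of the markers on these 6 lists was called against control basal cells, where Serpinb11 fell. The luminal progenitor list averaged 4.75 to 4.84 in GFP-negative and 4.33 to 4.54 in control basal cells, and the endothelial list 3.32 to 3.74 and 3.42 to 4.13. Cdh5 averaged 3.46 ± 0.12 in GFP-negative and 4.37 ± 0.72 in control basal cells (SD, n = 3 each). The part of these differences in that of Serpinb11 was not tested.

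Proteases that serpins inhibit or that work beside them, their receptors and cofactors, and inhibitors of other families were compared in the same way. Between GFP-positive and control basal cells 4.23% of all genes were called, 2.32% higher and 1.91% lower. Of 29 measured proteases, 1 fell in GFP-positive basal cells: Plat, tissue plasminogen activator, averaged 5.47 ± 0.61 in GFP-positive and 7.68 ± 0.44 in control basal cells (SD, n = 3 each), a difference of -2.21 (limma adjusted p 0.000477). The C1 inhibitor targets C1s1 and C1ra were near the array medians in both groups, at 3.26 and 3.26 in GFP-positive and 3.68 and 3.75 in control basal cells, and neither was called.

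Of 13 measured receptors and cofactors, Vldlr, an endocytic receptor that clears serpin-protease complexes, averaged 6.33 ± 0.62 in GFP-positive and 3.89 ± 0.32 in control basal cells (SD, n = 3 each). It rose by 2.44 (limma adjusted p 8.64e-06), and it was at 3.78 ± 0.02 in GFP-negative basal cells. Of 14 other inhibitors, the elastase inhibitor Slpi fell by 0.84 in GFP-positive relative to control basal cells (limma adjusted p 0.0239). In GFP-negative basal cells none of these genes was called against control basal cells, where 0.161% of all genes were.

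In Sca1-negative luminal cells the protease called was cathepsin L (Ctsl), at 9.68 ± 0.13 in mutant and 8.64 ± 0.08 in control cells (SD, n = 3 each), higher by 1.04 (limma adjusted p 0.000322). In Sca1-positive luminal cells the inhibitor called was cystatin C (Cst3), at 10.19 ± 0.61 in 2 mutant arrays and 8.33 ± 0.32 in 3 control arrays, higher by 1.87 (limma adjusted p 0.0311), beside the rise of Krt5 given above. No receptor or cofactor was called in either luminal subset. Of all genes 1.9% were called in Sca1-negative and 0.226% in Sca1-positive luminal cells.

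The serpins called in mutants were also among those that set control basal apart from control luminal cells. The comparisons of mutant with control basal cells use the same 3 control basal arrays, so this overlap is partly built in. Serpinb11 was high on those arrays only. In controls, 7 members were higher in basal than in Sca1-negative luminal cells and none was lower, where 4.67% of all genes were called higher and 9.89% in either direction. Against Sca1-positive luminal cells 8 were higher and 1 was lower, where 5.94% were called higher, 6.32% lower and 12.3% in either direction. All of these members were serpins, and the median difference of the 59 members was 0.04 and -0.02 in these comparisons, against 0.01 and -0.01 for all genes.

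Serpina3n encodes a secreted inhibitor related to human antichymotrypsin, and it had the largest difference of any member. Its values in control basal cells were 9.04, 9.04 and 9.14, against 4.22, 4.12 and 3.77 in control Sca1-negative and 4.26, 3.90 and 3.99 in control Sca1-positive luminal cells. Over all groups the 9 basal arrays read 8.74 to 9.48 (median 9.11) and the 11 luminal arrays 3.77 to 4.86 (median 4.13), with no overlap in mutants or controls. The differences of 5.03 and 5.02 had limma adjusted p of 1.65e-10 and 1.36e-10. Serpina3n was not called in any mutant comparison, and its probe set may also detect closely related clade A copies.

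Serpinh1 encodes HSP47, a collagen chaperone of the endoplasmic reticulum that inhibits no protease. It read 7.52, 7.77 and 7.54 in GFP-positive basal cells, 7.68, 6.35 and 7.06 in GFP-negative basal cells, and 7.24, 6.79 and 7.67 in control basal cells. Luminal values were 5.71, 5.67 and 5.73 in mutant and 5.31, 5.14 and 5.21 in control Sca1-negative cells, and 5.04 and 4.79 in mutant and 4.69, 4.87 and 4.42 in control Sca1-positive cells. All basal arrays were above all luminal arrays. Control basal exceeded control Sca1-negative luminal cells by 2.01 (limma adjusted p 5.72e-05) and Sca1-positive cells by 2.58 (adjusted p 3.06e-06).

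Serping1 was higher in control basal than in control Sca1-negative luminal cells by 3.44 (limma adjusted p 1.23e-06), and Serpinf1 by 2.72 (adjusted p 8.74e-05). Against Sca1-positive luminal cells these differences were 3.40 and 2.69. On the 11 luminal arrays, Serping1 read 3.35 to 4.03 and Serpinf1 3.90 to 4.67. Serpinb11 was higher in control basal cells by 1.60 and 1.45 (adjusted p 4.99e-06 and 1.11e-05).

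Serpinb5 encodes maspin, a non-inhibitory serpin known from myoepithelial cells. It read 8.18, 8.21 and 7.65 in GFP-positive basal cells, 8.0, 8.04 and 7.99 in GFP-negative basal cells, and 7.72, 8.21 and 7.93 in control basal cells. Luminal values were 7.19, 7.38 and 7.52 in mutant and 7.18, 7.49 and 6.06 in control Sca1-negative cells, and 7.33 and 7.03 in mutant and 7.08, 7.11 and 6.63 in control Sca1-positive cells. The basal arrays all lay above the luminal ones, with a smaller gap than for Serpina3n or Serpinh1. The differences of 1.04 and 1.01 (limma adjusted p 0.023 and 0.0239) were lost without replicate 2 or 3 of control basal cells (adjusted p 0.0566 to 0.0948 and 0.0564 to 0.095). Without replicate 3 of control Sca1-positive cells the second was 0.85 (adjusted p 0.103), and without replicate 3 of control Sca1-negative cells, the lowest array, the first was 0.62 (adjusted p 0.0794). With only the arrays compared in the fit, the first was also lost (adjusted p 0.202).

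Serpinb6a encodes an intracellular inhibitor of cathepsin G and related proteases, and it was low in Sca1-positive luminal cells. It read 6.72, 6.58 and 7.0 in mutant and 6.36, 6.43 and 6.04 in control Sca1-negative luminal cells, and 4.79 and 5.39 in mutant and 4.35, 5.05 and 5.37 in control Sca1-positive luminal cells. Basal values were 6.41, 7.51 and 6.48 in GFP-positive, 7.0, 6.42 and 7.26 in GFP-negative and 7.25, 6.66 and 7.20 in control cells. The 5 Sca1-positive arrays were the lowest of the 20. Control basal exceeded control Sca1-positive luminal cells by 2.11 (limma adjusted p 0.000214), and the 0.76 over control Sca1-negative cells was not called (adjusted p 0.176).

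Between the luminal subsets of the controls, Serpinb6a differed by -1.36 (Sca1-positive minus Sca1-negative), with a limma adjusted p of 0.0685. No member was called there, where 0.762% of all genes were, and 4 had an unadjusted p under 0.05 (6.78%, against 7.84% of all genes). With array weights Serpinb6a was called (-1.44, adjusted p 0.0207), as it was among genes above the median mean level (adjusted p 0.0368).

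Serpinb9, the inhibitor of granzyme B, was higher in control basal than in control luminal cells by 0.96 against the Sca1-negative and 0.86 against the Sca1-positive subset (limma adjusted p 0.00148 and 0.00291). Serpinb8, an inhibitor of furin in humans, was the member lower in control basal than in control Sca1-positive luminal cells, with a difference of -0.96 (adjusted p 0.0413), a call that held under 6 of 15 alternative settings. Serpinb8 also averaged 5.58 ± 0.37 in mutant and 4.51 ± 0.59 in control Sca1-negative luminal cells (SD, n = 3 each), a difference of 1.07 that was not called (adjusted p 0.0851). Without replicate 1 of control Sca1-negative cells it was 1.38 and was called (adjusted p 0.0269), as it was with array weights (adjusted p 0.0243). Serpinb9 between GFP-positive and GFP-negative basal cells was -0.54 (adjusted p 0.126), and -0.74 without replicate 3 of GFP-negative basal cells (adjusted p 0.0238).

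Other genes of these pathways were also compared between control basal and control Sca1-negative luminal cells, where 9.89% of all genes were called in either direction and 4.67% higher. In control basal relative to control Sca1-negative luminal cells, 2 of 29 proteases rose (Plat by 3.07 and Ctsl by 0.72) and 4 fell, with 23 not called, and those that fell included the membrane proteases Tmprss2 (-4.735) and Prss8 (-2.82). Of 13 receptors and cofactors 3 rose, among them the endocytic receptor Lrp1 by 2.60, and 7 were not called, while 3 fell, among them the urokinase receptor Plaur (-3.155). Of 14 other inhibitors Slpi rose by 2.09, Spint1 and Cst3 fell and 11 were not called. Against control Sca1-positive luminal cells, Cst3 was instead higher in control basal cells, by 1.25 (limma adjusted p 0.0103).

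The 48 members never called comprised 10 kallikreins, 13 clade A, 19 clade B and 2 clade I serpins and 1 each of clades C, D, E and F. Clade A serpins, mostly plasma proteins made in liver, had group means of 2.82 to 3.99, and antithrombin (Serpinc1), heparin cofactor II (Serpind1) and antiplasmin (Serpinf2) stayed between 3.35 and 4.06. Clade B members without a call had group means of 2.57 to 4.7. The highest of these, Serpinb6b, also had the largest spread within groups of the 59 members (SD 0.75, against a median of 0.14 over members and 0.20 over all genes). Its group means in GFP-positive, GFP-negative and control basal cells were 4.46, 4.70 and 4.58, with arrays from 3.61 to 6.01, while the 11 luminal arrays read 3.11 to 3.45. Its difference of 1.34 between control basal and control Sca1-negative luminal cells was not called (limma adjusted p 0.179). Serpina1c was called between control basal and control Sca1-positive luminal cells only without replicate 3 of the Sca1-positive group (-0.59, adjusted p 0.0408).

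A total of 22 members belong to groups of closely related copies (6 of clade A and 16 of clade B), among them Serpina3n, Serpinb6a, Serpinb6b and Serpinb9, and signal of such copies may be mixed on the array.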

How the data were processed

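Each deposited column holds log2 values per probe set, 1 column per array for 20 arrays, with the unit read from the values (1.98 to 13.07). Per the submitters' processing notes, affy was used, with no version or role stated; how arrays were normalized or filtered, and the build, is not given in the sources used here. These log2 values as deposited by the authors were used with no further normalization. Of 34760 probe sets, 21640 carried a single symbol in the platform annotation, 1321 several and 11799 none; 21553 of the first were found in a RefSeq table (GRCm38.p6), which changed 0 symbols. For 954 genes with several probe sets (0 members among them), the one of highest mean was kept.

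All 19937 genes were fitted in limma 3.58.1 (R 4.3.3) with 7 group means over 20 arrays, with two-sided moderated tests, and 10 contrasts were taken. Benjamini-Hochberg adjustment ran within each contrast, and calls were made at 0.05 with no fold limit. "Rose" and "fell" name differences between groups. The labels describe separate sortings of pooled mice, so p-values measure the spread between such pools; gates of 1 genotype may share a pool. The number of arrays limits the precision.

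Full values are given for Serping1, Serpinb11, Klk10 and members with a called difference of at least 1; called members under that are given by difference, and the rest by range and count. The members, protease, inhibitor and marker lists and tests were chosen with earlier results of these data known. Genes named beyond that rule (Serpinb6b, Klk9 and Klk12, Serpina1c, the plasma serpins, C1s1, C1ra and the markers named) were chosen for their role or after their values were seen. Alternatives were array weights, only the arrays compared, a fixed or random block for replicate number, trended robust variance, genes above the median level, the mean of a gene's probe sets, quantile normalization, leaving out each array and, chosen after seeing the data, leaving out both arrays of narrower spread. The fit was tested on simulated data. The simulated arrays had independent deviations and no low end of the scale, so that test could not address shared pools or low levels.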

Additional observations from a re-analysis of the deposited data

Results flagged for a closer look

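For 3 serpins, named because they passed, the GFP-positive minus control difference in basal cells was set against the mutant minus control difference in Sca1-negative luminal cells, which was subtracted from it. Serpinb11 gave -1.5320, from -1.58 in basal and -0.05 in luminal cells (limma adjusted p 0.00188). Serping1 gave -3.2161, from -3.03 in basal and 0.18 in luminal cells (adjusted p 0.000663). Serpinf1 gave 2.1739, from 2.35 in basal and 0.17 in luminal cells (adjusted p 0.0447). On the 11 luminal arrays Serping1 read 3.35 to 4.03 and Serpinf1 3.90 to 4.67, with array medians of 3.66 to 3.8, and Serpinb11 read 3.08 to 3.46. A fall of Serping1 or Serpinb11 could not be measured there, so their values restate the basal falls and do not show that the lineages responded differently. Outliers within a group were not looked for, since no group held more than 3 arrays.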

How the results depend on the processing

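No called difference reversed under any alternative run, and 17 of 27 calls of named genes passed under every run that tested the gene. For Serpinb11 and Serpinb9 such runs leave out the filter on the median mean level, which removed both genes. With only the arrays compared in the fit, 1 member (Serpinh1) was called in Sca1-negative luminal cells in place of 2, 0 between GFP-negative and control basal cells in place of 1, and 0 between GFP-positive and GFP-negative basal cells in place of 2. Among genes above the median mean level (3.86, which 11 members passed), these counts were 1 in Sca1-negative luminal cells and 0 between GFP-negative and control basal cells, because Klk11 and Serpinb11 lie under it. Serpinb9 lies under it too, so the calls of Serpinb11 and Serpinb9 in the other comparisons were not tested there. Between control luminal subsets, 1 member (Serpinb6a) was called with array weights and 1 under that filter, in place of 0. Leaving out 1 array at a time gave 2 to 3 calls in Sca1-negative luminal cells, 0 in Sca1-positive luminal cells, 3 between GFP-positive and control basal cells, 1 between GFP-negative and control basal cells, and 2 to 3 between GFP-positive and GFP-negative basal cells. Control basal cells had 6 to 8 calls against Sca1-negative and 7 to 9 against Sca1-positive luminal cells, and the control luminal subsets 0. The luminal interaction had 0 to 1 calls, the 1 being Klk11 without replicate 2 of mutant Sca1-negative luminal cells, and the interaction between lineages 2 to 3. With the replicate number as a block, Serpinb8 between control basal and Sca1-positive luminal cells (adjusted p 0.0508) and the Serpinf1 interaction (adjusted p 0.0597) lost their calls, which left 8 and 2 members; no other call changed. Deviations of same-numbered arrays from their group means had a median correlation of 0.02 over 57 pairs of arrays, 5 above 0.1. These pairs include arrays of different genotypes, so the median cannot exclude pairing of gates within a genotype. Same-numbered control Sca1-negative and Sca1-positive luminal arrays correlated at 0.078, 0.103 and 0.126, and same-numbered GFP-negative and GFP-positive basal arrays at 0.041, 0.029 and 0.031. Whether such arrays are paired was not settled. The causes were not tested beyond the removal of genes by the filter.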
